A study of Mus musculus with 16 samples.

Results

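Of the 16 livers of the study, 8 came from mice on a high-fat diet (HFD), and the titles of these 8 fall into 2 runs of numbers: L231, L232, L233 and L234, and L338, L339, L341 and L342. All 8 were taken by their titles alone, 4 per run, and are compared here as L231-L234 against L338-L342, with genotype as a term. All came from female mice, 27 weeks old. The mutants (Esr1Nkx2-1Cre) lose the oestrogen receptor ERα where Nkx2-1 drives Cre, including the medial basal hypothalamus. The controls (Esr1fl/fl) carry the floxed allele without Cre, the background is mixed CD-1;129P2, and the diet lasted 17 weeks. Because the liver is not the site of the deletion, the liver level of Esr1 is no check of the labels. L231-L234 held 1 liver labelled mutant (L231) and 3 controls, and L338-L342 held 3 mutants (L338, L339 and L341) and 1 control (L342). The other 8 livers, of 4 controls and 4 mutants on chow, are a further reference. Their titles also fall into 2 runs, L314-L316 (2 controls and 1 mutant) and L324-L328 (2 controls and 3 mutants), which were pooled. The labels do not say what the title numbers stand for. The title series therefore cannot be told apart from a cohort, an RNA extraction, a sequencing run or anything else that went with it, and since the labels do not tie libraries to separate animals, p-values measure the spread between libraries, which may be technical.

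The liver makes most plasma proteins, much of the body's cholesterol and all primary bile acids. Its genes follow diet, feeding and time of day and, in rodents, the pattern of growth hormone release, which sets male-biased and female-biased genes through the transcription factor STAT5. Ribosomal protein and respiratory chain messengers are short, whereas many regulators have long transcripts rich in A and T. Length and GC content affect how well a transcript is recovered in library preparation and sequencing. Length, GC or both are set beside some of the gene groups for that reason.

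All values are TPM (a transcript's length-adjusted share of a library) that the authors adjusted by size factors. As they hold no read counts, library depth is not known, and counting error could not be estimated. Differences are on the log2(value + 1) scale, as L338-L342 minus L231-L234, with the standard error (SE) from limma. A gene was called where its Benjamini-Hochberg adjusted p from limma was below 0.05 over the 12111 genes that reached 1 in at least 4 of the 8 libraries. With 1 lone liver per genotype, the estimate is the plain average of 2 differences, L342 minus the mean of L232, L233 and L234, and the mean of L338, L339 and L341 minus L231. L231 and L342 thus each weigh as much as 3 other livers together.

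Column totals were 1039795 to 1119703 in L231-L234 and 947756 to 1017353 in L338-L342, with no overlap (exact two-sided permutation test, p = 0.0286, the smallest that 4 against 4 can give, 0.0477 after adjustment over 20 library measures). The 20 most abundant genes held 32.7 to 35.8% and 34.0 to 35.2% of the totals (exact permutation p = 0.657). Summed hepatocyte markers were 179566 to 214765 and 153509 to 190406, far above every other marker sum, as the tissue label states.

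The library labelled mutant, L231, went against its label. Each of the 16 libraries was left out in turn, and genes were counted that parted the other 15 by genotype with no overlap and a log2 difference of at least 1. With L231 left out there were 39 such genes, and L231 fell on the control side for 35 of them, on the mutant side for 3 and between for 1. For every other library left out there were 4 to 6 such genes, at most 2 of them on the side opposite to the label. A gene on which a library goes against its label can be counted only when that library is left out. Cyp17a1, the steroid 17α-hydroxylase, is an example. It was 39.5, 74.8 and 60.7 in L338, L339 and L341, and 20.2 to 33.0 in the 4 chow mutants. In L231 it was 1.77, and in the HFD controls L232, L233, L234 and L342 it was 3.002, 4.74 and 2.48, and 0.881. The 4 chow controls read 1.63 to 7.22. Of the 39 genes, 28 were tested between the title series and 15 were called. L231 is kept as labelled below, and title-series results that rest on it are given with and without it. Without L231 the estimate is L342 minus the mean of L232, L233 and L234, all labelled control, in which the lone L342 is assumed to vary like the others. The difference within mutants, and the estimate without L342, is the mean of L338, L339 and L341 minus L231. Where L231 reads as a control, that difference holds genotype as well as title series. The same sign in both genotypes is then no repeat of the title-series difference.

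The title series differed over a large part of the transcriptome. Of 12111 genes, 3558 (29.4%) were called, 1883 higher in L338-L342 (15.5%) and 1675 lower (13.8%), and 5139 passed an unadjusted p of 0.05. Most differences were small, with a median absolute value of 0.606 among called genes and 433 genes at 1 or more. In 4438 genes (36.6%) the 4 and 4 libraries did not overlap, 2423 of them higher and 2015 lower in L338-L342. The genotype term of the same fit called 3 genes, with 702 at an unadjusted p below 0.05. It averages L231 minus the mean of L232, L233 and L234, and the mean of L338, L339 and L341 minus L342. As L231 went against its label and no count without it is given, the 3 calls do not measure how much genotype matters. All 3558 called genes had the same sign within controls and within mutants, against 75.55% of all genes tested, and an estimate that averages both favours this. The count was 2183 without L231 and 915 without L342, of which 1845 and 812 were among the 3558 with the same sign. Scaling moved the balance of the calls. When libraries were rescaled without the 20 most abundant genes, the median of all genes moved from 0.04 to 0.15 and 70.5% of calls were higher in L338-L342, against 52.9%. Under median-of-ratios scaling 45.2% were higher. The medians of the ribosomal protein, oxidative phosphorylation, mitochondrially encoded, cholesterol, female-biased, red blood cell and zinc finger lists kept their sign under these scalings and under quantile normalisation.

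The differences followed transcript length and GC content. Among the 1211 genes with the shortest transcripts the median log2 difference was −0.35, and among the 1211 with the longest it was 0.35. It was 0.36 in the lowest-GC group of the same size and −0.36 in the highest. Across 12105 genes with an annotated transcript, Spearman's rho of the difference was 0.413 with length and −0.492 with GC. These coefficients describe genes that share the same 8 libraries and are not independent replicates. The coefficients had the same signs within controls (0.418 and −0.511) and within mutants (0.334 and −0.386). The median transcript had 4612 bases and 44.3% GC in genes called higher, 1898 bases and 54.8% GC in genes called lower, and 3218 bases and 49.5% GC in all genes tested.

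**Figure D1:**
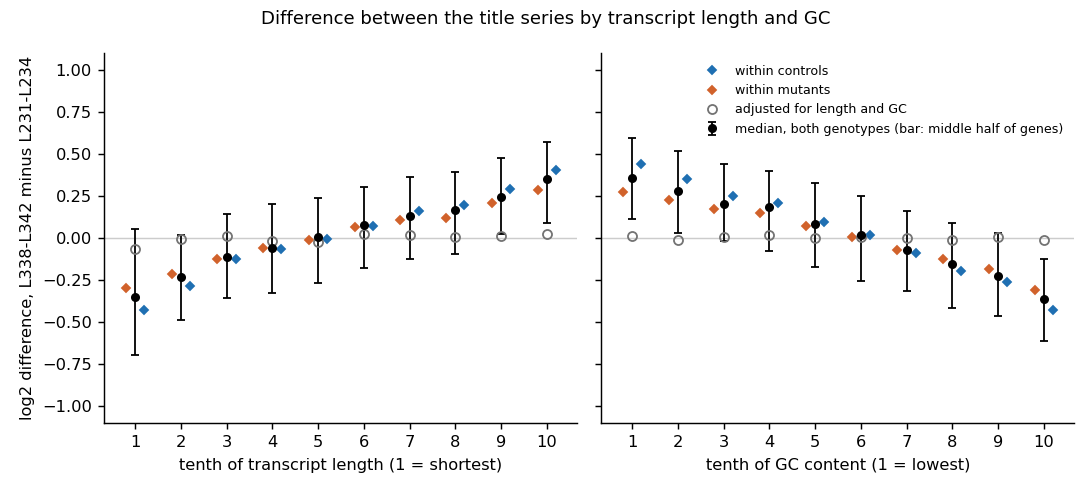
Log2 difference (L338-L342 minus L231-L234, y axis) of genes grouped into 10 equal classes by transcript length (left) and by GC content (right). Black points and bars give the median and the range from the 25th to the 75th percentile of genes, diamonds the medians within controls and within mutants, and open circles the medians after adjustment for length and GC. The medians climb from −0.35 to 0.35 along length and drop from 0.36 to −0.36 along GC, and lie near 0 after adjustment.

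The starts of 2 coding sequences show such a contrast in composition, one from a gene that was higher in L338-L342 and one from a gene that was lower. Slco1a1, on the minus strand of chromosome 6, encodes an organic anion uptake transporter of hepatocytes, and its coding sequence has 41.0% GC. Jund, on the plus strand of chromosome 8, encodes a subunit of the AP-1 transcription factor, and its coding sequence has 70.7% GC. The first 90 coding bases of each, from GENCODE M21 transcripts on GRCm38, are printed with G and C in capitals and hold 38.9% and 71.1% GC:
Slco1a1: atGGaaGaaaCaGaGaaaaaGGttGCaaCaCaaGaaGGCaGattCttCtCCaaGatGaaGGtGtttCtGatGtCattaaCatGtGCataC
Jund: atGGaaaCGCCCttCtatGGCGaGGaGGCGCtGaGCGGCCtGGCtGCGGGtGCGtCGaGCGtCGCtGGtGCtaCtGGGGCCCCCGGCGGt

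Single libraries carried these gradients. The slope of a library's deviations on length, in log2 units per doubling, was -0.0654, -0.0783, -0.0916 and -0.0964 in L231, L232, L233 and L234. It was 0.0468, 0.0270, 0.0224 and 0.0733 in L338, L339, L341 and L342, and -0.00198 to 0.0511 on chow. The slope on GC, in log2 units per 10 percentage points, was 0.160, 0.203, 0.169 and 0.165 in L231-L234, -0.107, -0.118, -0.0515 and -0.205 in L338-L342 and -0.0851 to 0.0901 on chow. Neither slope overlapped between the HFD series (exact permutation p = 0.0286 for each, adjusted 0.0477), and all of L231-L234 lay outside the chow range on both. Of L338-L342, 3 lay within the chow range on length, with L342 above it, and L341 lay within it on GC, with the other 3 below.

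**Figure D2:**
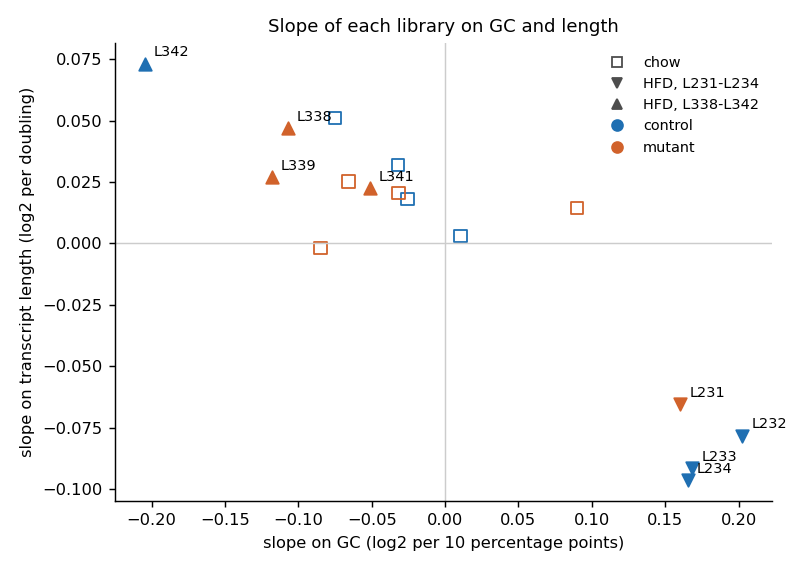
Slope of each library's log2 deviations on GC content (x axis, log2 per 10 percentage points) and on transcript length (y axis, log2 per doubling). Each symbol is 1 liver, coloured by genotype label, with open squares for chow and triangles for HFD. L231-L234 lie together at the lower right, apart from the 8 chow livers, and L342 lies farthest to the upper left.

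After each library was adjusted by a smooth curve in length and GC, rho was 0.033 with length and −0.009 with GC, and 1482 genes were called, 608 higher (5.02%) and 874 lower (7.22%), so that 41% of calls were higher. Of these, 1169 had been called before with the same sign, which is 32.9% of the first set and 78.9% of the second. The adjustment takes out any difference that follows length or GC, whether it arose in the livers or in the libraries, and the values cannot tell these apart. With L231 also left out, 525 genes were called, 154 higher and 371 lower. A total of 444 genes (12.5% of the 3558), 164 higher and 280 lower, were called with the same sign after adjustment, without L231 and without L342. Of the 72 called genes named here, 10 were no longer called after adjustment, 14 without L231 and 17 without L342. Those lost without L231 were Igf1, Socs2, Onecut1, Sc5d, Msmo1, Stard4, Gpam, Dgat1, Saa1, Saa2, Tyrobp, Cd163, Idi1-ps1 and Tsku. Those lost without L342 were Alas2, Igf1, Socs2, Ppara, Klf15, Gpt, Ifih1, Saa1, Saa2, Serpina3k, C1qa, Ptprb, Hbb-bs, Hspa1b, Zfp36, Manf and Gm10925. Dcn and Mmp2, also named below, are not counted among the 72. Counts for gene groups are given before adjustment, after it and without L231, each pair in the order its sentence states. Fewer of the 12111 genes were called after adjustment, without L231 and without L342, as given above. A smaller count for a list can follow from that alone. Before adjustment, both directions together, several lists were called about as often as genes at large (29.4%) or less often. Among them were the complement and coagulation, fatty acid oxidation, interferon, lipogenesis, xenobiotic and clock lists.

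Ribosomal protein genes made the broadest block of lower genes. Of 83 cytosolic ribosomal protein genes tested, 67 were lower in L338-L342 and 0 higher, with a median log2 difference of −0.66 against 0.04 over all genes. After adjustment 50 were lower and 1 higher, and without L231 58 were lower and 1 higher. The median was −0.76 without L231 and −0.54 without L342. Cytosolic ribosomal protein transcripts are short (median 1059 bases) with 51.0% GC. The summed level was 39383, 42199, 42588 and 43370 in L231-L234 and 25396, 27757, 25527 and 23455 in L338-L342, with no overlap (exact permutation p = 0.0286, adjusted 0.0477). The chow livers, at 26618 to 31988, overlapped L338-L342 and lay below L231-L234. These genes have many processed pseudogenes, so reads could be divided among near-identical copies and single values are uncertain.

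Rpl37, of the large ribosomal subunit, was 175, 176, 188 and 192 in L231-L234 and 82.7, 87.5, 81.7 and 81.8 in L338-L342. Each value of L338-L342 was below all of L231-L234 and below the chow range of 91.5 to 134 (−1.11, SE 0.08, adjusted p = 0.000791; −0.76 after adjustment). Rps12, of the small subunit, fell by 1.95 (SE 0.18) and after adjustment differed by −1.98, from 56.3 to 64.0 in L231-L234 to 11.6 to 23.1 in L338-L342. Rpl23 fell by 1.09 (SE 0.11), whereas Rpl10 was not called (−0.38, SE 0.18, adjusted p = 0.144). Of the 444 genes called throughout, 35 were cytosolic ribosomal protein genes. The 77 mitochondrial ribosomal protein genes had 43 lower and 1 higher (median −0.38), 30 lower and 0 higher after adjustment, and 32 lower and 0 higher without L231. Their median was −0.44 without L231 and −0.34 without L342. Mrpl23 fell by 1.41 (SE 0.14) and Mrpl14 fell by 1.29 (SE 0.15).

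Respiratory chain genes parted by the genome that encodes them. Of 80 nuclear-encoded oxidative phosphorylation subunits, 48 were lower in L338-L342 and 0 higher (median −0.54). After adjustment 31 were lower and 1 higher, and without L231 49 were lower and 0 higher. The median was −0.72 without L231 and nearer to 0, at −0.31, without L342, so its size depended on the library left out. The transcripts of these subunits had a median of 1088 bases and 50.2% GC. Uqcrq, of complex III, was 1493, 1566, 1806 and 1879 in L231-L234 and 833, 842, 810.3 and 704 in L338-L342. The chow range of 749.9 to 1048 overlapped L338-L342 and lay below L231-L234 (−1.08, SE 0.13, adjusted p = 0.00237; −0.91 after adjustment). Cox6b2, a cytochrome c oxidase subunit, fell by 1.94 (SE 0.21). Atp5b, the catalytic β subunit of ATP synthase, was not called (−0.20, SE 0.13, adjusted p = 0.29).

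Of 13 genes of the mitochondrial genome, 5 were higher and 1 lower (median 0.30), 5 and 1 after adjustment, and 6 and 0 without L231. The transcripts of these mitochondrial genes had a median of 784 bases and 37.1% GC. mt-Nd4l, a complex I subunit, was 6285, 6117, 7264 and 5605 in L231-L234 and 16220, 14940, 13730 and 21930 in L338-L342. The HFD series did not overlap, and the chow livers, at 6489 to 14380, overlapped both (1.52, SE 0.18, adjusted p = 0.00237). mt-Nd5 rose by 1.05 (SE 0.14), and mt-Co1 was not called (0.35, SE 0.15, adjusted p = 0.11). The summed level was 91433 to 108380 in L231-L234, 116517 to 129742 in L338-L342 and 70395 to 104168 on chow (exact permutation p = 0.0286 between the HFD series, adjusted 0.0477).

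Zinc finger protein genes, many of them DNA-binding repressors, have long transcripts of low GC (medians 3742 bases and 43.7%). Of 274 tested, 73 were higher and 17 lower (median 0.19), 15 and 12 after adjustment (median 0.01), and 30 and 9 without L231. Splicing factor genes (42 tested, 43.2% GC) had 10 higher and 2 lower, 2 and 8 after adjustment, and 7 and 1 without L231. Histone genes (22 tested, median 1112 bases) had 0 higher and 9 lower, 0 and 5 after adjustment, and 0 and 4 without L231. The linker histone H1f2 was 29.8, 18.4, 17.5 and 20.4 in L231-L234 and 3.55, 2.63, 9.16 and 4.75 in L338-L342, without overlap (−2.13, SE 0.35, adjusted p = 0.00521; −1.81 after adjustment, adjusted p = 0.0189).

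**Figure D3:**
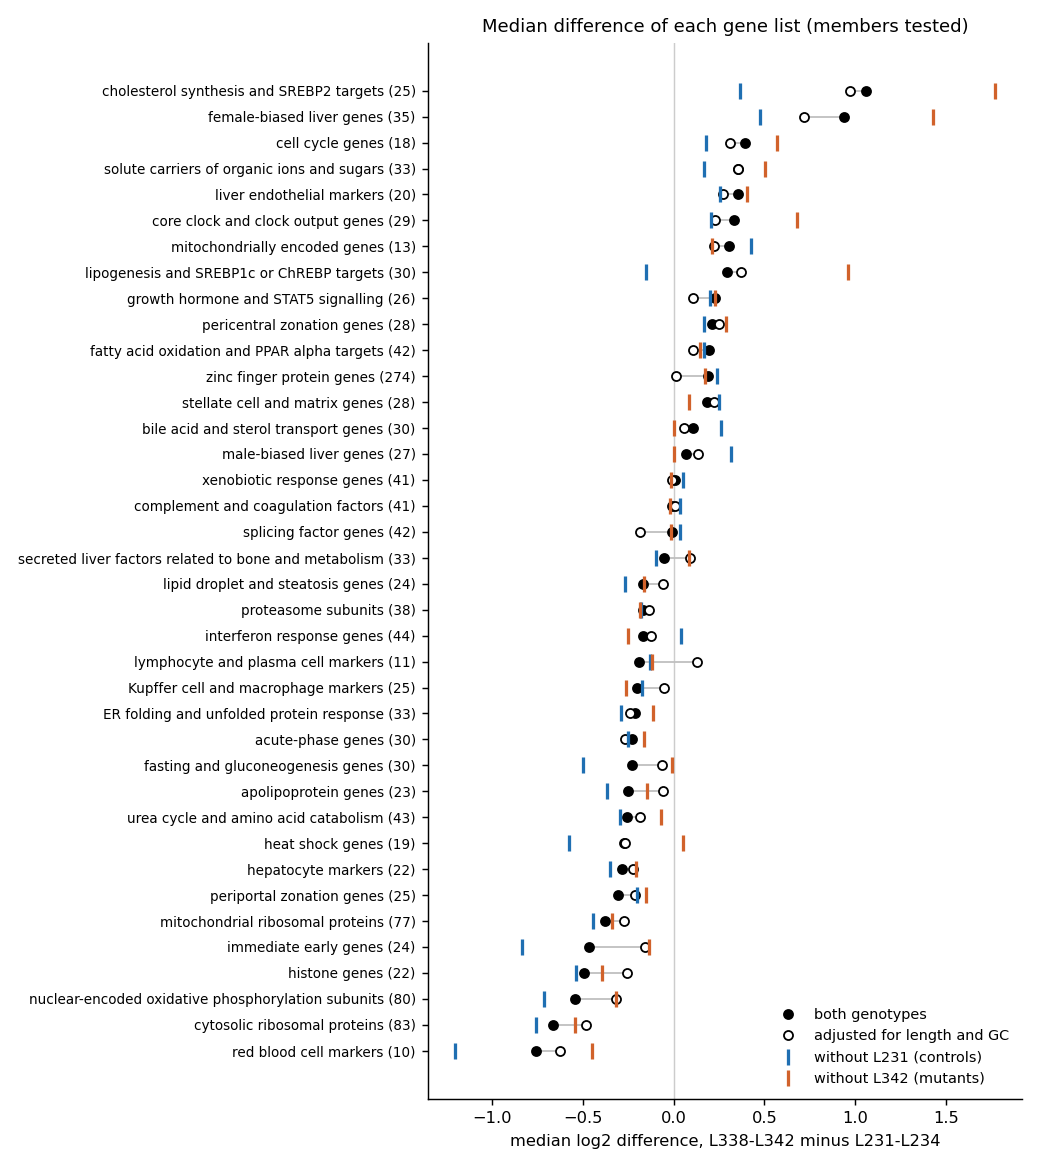
Median log2 difference (L338-L342 minus L231-L234, x axis) of each gene list with at least 10 members tested, with the number tested in brackets. Filled circles use all 8 libraries, open circles are adjusted for length and GC, and ticks leave out L231 (controls alone) or L342 (mutants alone). The ribosomal protein and oxidative phosphorylation lists lie below 0 throughout, and cholesterol synthesis spreads from 0.37 without L231 to 1.77 without L342.

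Some bile acid and sterol transport genes parted the series within both genotypes and after adjustment. Cyp7a1, the rate-limiting enzyme of bile acid synthesis, was 45.1, 19.7, 12.1 and 28.8 in L231-L234 and 152, 239, 228 and 77.1 in L338-L342. The lowest value of L338-L342, in L342, was above the highest of L231-L234, in L231 (2.05, SE 0.29, adjusted p = 0.00316; 1.69 after adjustment, adjusted p = 0.0141). Nr0b2 encodes SHP, a repressor of Cyp7a1, and went the other way. It was 78.1, 86.2, 98.2 and 108 in L231-L234 and 12.1, 20.9, 13.2 and 32.4 in L338-L342, without overlap (−1.93, SE 0.23, adjusted p = 0.0024; −1.46 after adjustment, adjusted p = 0.0134). The difference was 1.96 in controls and 2.14 in mutants for Cyp7a1, and −1.55 and −2.31 for Nr0b2. Scp2, a sterol carrier protein, fell by 0.75 (SE 0.09), from 2672 to 2840 to 1630 to 1690. In the same group, Cyp8b1 and Cyp7b1 were not called (0.09, SE 0.46, adjusted p = 0.895, and 0.32, SE 0.16, adjusted p = 0.157). Over 30 genes of bile acid and sterol transport, 9 were higher and 5 lower, 6 and 2 after adjustment, and 5 and 3 without L231.

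Slco1a1, whose coding start is printed above, is also a male-biased, growth-hormone-dependent gene. It was 46.9, 64.2, 58.0 and 73.8 in L231-L234 and 226, 231.2, 137 and 275 in L338-L342. The chow range of 50.2 to 215 reached into both series (2.04, SE 0.20, adjusted p = 0.0018; 1.69 after adjustment, adjusted p = 0.00401). The difference was 2.06 in controls and 2.02 in mutants. Among 33 solute carriers of organic ions and sugars, 12 were higher and 1 lower, 8 and 2 after adjustment, and 5 and 0 without L231.

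**Figure D4:**
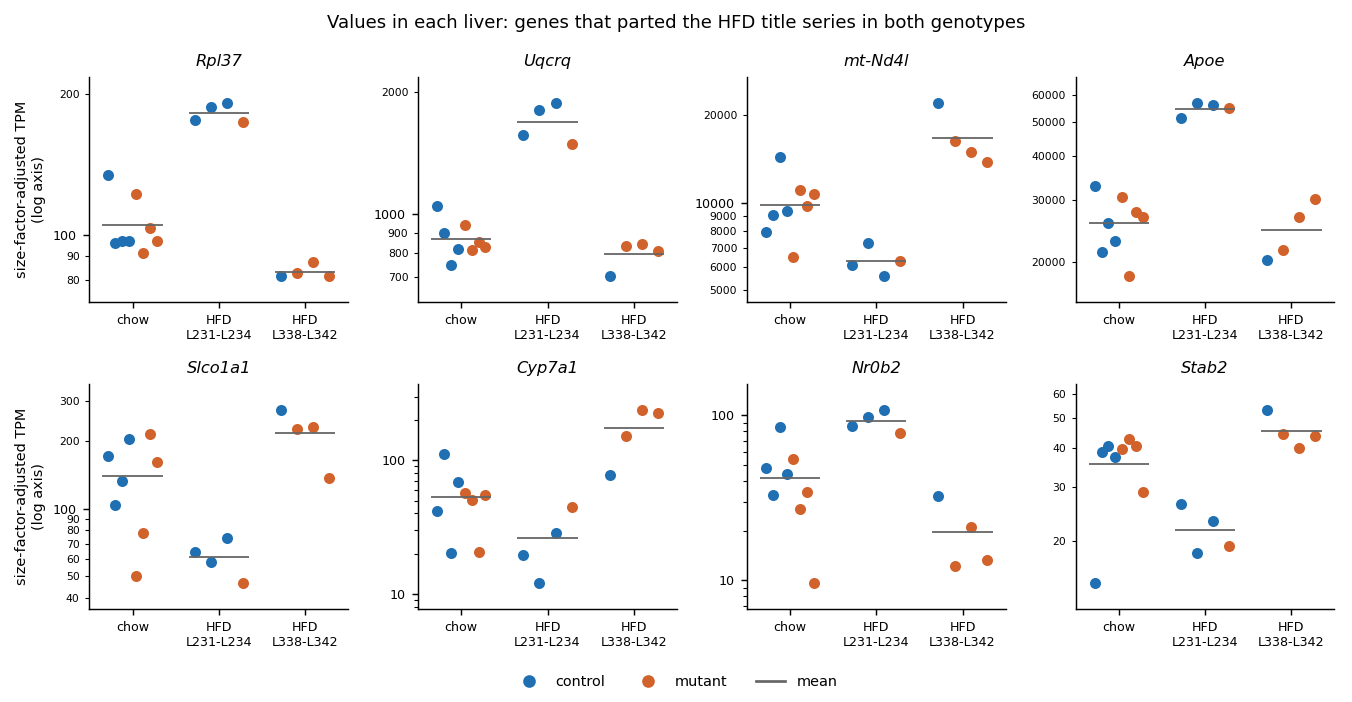
Size-factor-adjusted TPM (y axis, log scale) in each of the 16 livers for 8 genes that parted L231-L234 from L338-L342 within both genotypes. Each point is 1 liver, coloured by genotype label, and each line is a group mean. In Uqcrq and Apoe the chow livers overlap L338-L342 and lie below L231-L234, and in mt-Nd4l they overlap both.

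Sex-biased liver genes were called on both sides. Of 35 female-biased genes, 18 were higher in L338-L342 and 1 lower (median 0.94). After adjustment 9 were higher and 0 lower, and without L231 5 were higher and 1 lower (median 0.48). Fmo4, a flavin-containing monooxygenase, was 8.50, 8.77, 9.59 and 12.9 in L231-L234 and 31.4, 30.6, 26.4 and 24.6 in L338-L342. The series did not overlap (1.43, SE 0.17, adjusted p = 0.00237; 1.28 after adjustment), and the difference was 1.18 in controls and 1.68 in mutants. Abcd2, a peroxisomal fatty acid transporter, rose by 1.22 (SE 0.20) and Atp6v0d2, a proton pump subunit, rose by 0.94 (SE 0.14). Cyp2b9 was not called (0.42, SE 0.15, adjusted p = 0.0599). Of 27 male-biased genes, 6 were higher and 3 lower (median 0.07), 5 and 2 after adjustment, and 6 and 1 without L231. One of them, Cyp4f14, a cytochrome P450, rose by 0.84 (SE 0.08).

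Cyp2b13, a female-biased cytochrome P450, was 514, 419, 514 and 516 in L231-L234 and 92.1, 119 and 120.4 in the mutants L338, L339 and L341, but 522 in the control L342. Cyp2d9, a male-biased one, was 45.6, 39.0, 62.5 and 84.3 in L231-L234 and 4.21, 3.60 and 7.22 in the same 3 mutants, but 50.2 in L342. In both genes L231 and L342 read with the controls, the other HFD mutants read lower, and neither gene was called (adjusted p = 0.0987 and 0.063).

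In the growth hormone and STAT5 list, 10 of 26 genes were higher and 2 lower (median 0.23), 5 and 0 after adjustment, and 1 and 2 without L231. Socs2, a STAT5 target that restrains growth hormone signalling, was 8.49, 6.69, 20.4 and 14.0 in L231-L234 and 53.6, 32.5, 34.8 and 31.9 in L338-L342. The series did not overlap (1.68, SE 0.37, adjusted p = 0.0138; adjusted p = 0.0414 after adjustment for length and GC), but without L231 Socs2 was not called (adjusted p = 0.129). Onecut1, a hepatocyte transcription factor, rose by 1.62 (SE 0.36), and was not called without L231 (adjusted p = 0.151). Igf1, the main endocrine target of growth hormone, was 388, 427, 489 and 448 in L231-L234 and 604, 580.0, 516 and 588 in L338-L342, also without overlap (0.46, SE 0.10, adjusted p = 0.0134). After adjustment Igf1 was at −0.06 (adjusted p = 0.749), and without L231 it was not called (adjusted p = 0.0963).

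Cholesterol synthesis genes, targets of the transcription factor SREBP2, had the highest median of the lists with at least 10 members tested, and it changed most with the library left out. Of 25 genes, 10 were higher and 0 lower (median 1.06), 4 and 0 after adjustment (median 0.97). Without L231 0 were higher and 1 lower (median 0.37), and without L342 9 were higher and 0 lower (median 1.77). Msmo1, a sterol methyl oxidase, was 19.7, 24.99, 45.2 and 24.4 in L231-L234 and 199, 149.7, 63.8 and 82.0 in L338-L342. The series did not overlap, with L338 and L339 the highest (2.002, SE 0.45, adjusted p = 0.0142; adjusted p = 0.142 without L231). Sc5d rose by 1.45 (SE 0.31) and the sterol carrier gene Stard4 rose by 1.30 (SE 0.25), with adjusted p = 0.125 and 0.0881 without L231. After adjustment Sc5d was not called (adjusted p = 0.055). Hmgcs1, at the head of the pathway, and Acat2 were not called (1.03, SE 0.48, adjusted p = 0.136, and 0.70, SE 0.37, adjusted p = 0.183).

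Of 30 lipogenesis genes, 4 were higher and 3 lower (median 0.29), 2 and 1 after adjustment, and 0 and 2 without L231. Without L231 the median was −0.15, and without L342 it was 0.96. Before adjustment, both directions together, this list was called no more often than genes at large (29.4%). Khk, the fructokinase, was 609.9, 647, 776 and 939.5 in L231-L234 and 327.6, 364, 343 and 303 in L338-L342, without overlap (−1.09, SE 0.16, adjusted p = 0.00399; −0.64 after adjustment, adjusted p = 0.0296). Gpam, which starts glycerolipid synthesis, rose by 1.11 (SE 0.23) and was not called without L231 (adjusted p = 0.113). Dgat1, which completes triglyceride synthesis, fell by 0.46 (SE 0.11) and was at −0.14 after adjustment (adjusted p = 0.479). Srebf1, which encodes the lipogenic factor SREBP1, was not called (−0.26, SE 0.16, adjusted p = 0.249).

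Fatty acid oxidation genes and targets of the nuclear receptor PPARα had 8 of 42 higher and 4 lower, 7 and 0 after adjustment, and 4 and 3 without L231. Ppara, the receptor gene, was 45.6, 39.2, 65.2 and 58.0 in L231-L234 and 88.9, 85.4, 107 and 123 in L338-L342, without overlap (1.11, SE 0.18, adjusted p = 0.00526; 1.12 after adjustment). Its target Vnn1 rose by 1.03 (SE 0.09) and Cyp4a31, a fatty acid ω-hydroxylase, rose by 2.03 (SE 0.30). Both stayed called after adjustment and without L231, while Cpt2, of mitochondrial fatty acid import, was not called (0.12, SE 0.08, adjusted p = 0.296). Of 30 fasting and gluconeogenesis genes, 2 were higher and 7 lower, 1 and 2 after adjustment, and 1 and 10 without L231. Nr3c1, the glucocorticoid receptor gene, rose by 0.87 (SE 0.13). The transcription factor gene Klf15 fell by 0.64 (SE 0.12), and Gpt, an alanine transaminase, fell by 0.75 (SE 0.15) but was not called after adjustment (adjusted p = 0.0611). Core clock and clock output genes had 7 of 29 higher and 2 lower, 2 and 0 after adjustment, and 0 and 2 without L231. Urea cycle and amino acid catabolism genes had 5 of 43 higher and 13 lower, 1 and 8 after adjustment, and 1 and 12 without L231.

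Apolipoprotein genes had 2 of 23 higher and 7 lower, 1 and 5 after adjustment, and 1 and 7 without L231. Apoe, for the clearance of lipoprotein remnants, was 54880, 51300, 56760 and 56030 in L231-L234 and 21620, 26880, 30180 and 20320 in L338-L342. L338-L342 lay within the chow range of 18270 to 32940 and L231-L234 above it (−1.25, SE 0.19, adjusted p = 0.00433; −0.77 after adjustment, adjusted p = 0.0236). Apoc1 fell by 1.38 (SE 0.17). Alb, for serum albumin, was 45440, 36040, 46650 and 52340 in L231-L234 and 70070, 79770, 59540 and 62870 in L338-L342, which did not overlap, yet it was not called (0.55, SE 0.22, adjusted p = 0.0882).

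Complement and coagulation factors had 7 of 41 higher and 4 lower, 4 and 1 after adjustment, and 7 and 3 without L231. Before adjustment, both directions together, this list was called no more often than genes at large (29.4%). F11, coagulation factor XI, was 51.7, 42.6, 41.2 and 43.7 in L231-L234 and 106, 104, 100.3 and 99.0 in L338-L342. The livers of each series lay close together and the series far apart (1.09, SE 0.08, adjusted p = 0.00102; 1.04 after adjustment). Masp1, a protease of the lectin pathway, rose by 1.08 (SE 0.10), and F5, coagulation factor V, rose by 0.74 (SE 0.09).

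Acute-phase genes had 3 of 30 higher and 8 lower, 1 and 1 after adjustment, and 1 and 4 without L231. Saa3, a serum amyloid A of inflamed tissue, was 88.2, 61.5, 89.9 and 33.7 in L231-L234 and 3.502, 5.32, 14.0 and 9.46 in L338-L342, without overlap (−3.02, SE 0.50, adjusted p = 0.00526; −3.01 after adjustment). On chow it was 137 in L325 and 5.66 to 22.2 in the other 7 livers, and those 7 lay below each of L231-L234. Saa1 was 309, 2886, 379 and 183 in L231-L234, with L232 far above the rest, and 15.6, 27.1, 111 and 46.0 in L338-L342 (−3.35, SE 1.01, adjusted p = 0.0396). Saa2, its near copy, fell by 3.48 (SE 1.06), and without L231 neither was called (adjusted p = 0.136 and 0.127). After adjustment for length and GC, Saa1 and Saa2 were not called either (adjusted p = 0.0776 and 0.079). Serpina3k, a secreted protease inhibitor, rose by 1.20 (SE 0.25). Of 44 interferon response genes, 4 were higher and 8 lower, 2 and 3 after adjustment, and 4 and 5 without L231. Bst2, which tethers budding viruses, was 325.9, 306, 349 and 287 in L231-L234 and 136, 134, 165 and 119.8 in L338-L342, without overlap (−1.27, SE 0.12, adjusted p = 0.0018; −0.86 after adjustment). Psmb10, an immunoproteasome subunit, fell by 0.78 (SE 0.10), and Ifih1, a sensor of viral RNA, rose by 0.90 (SE 0.14).

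Markers of other liver cells were called about as often as genes at large (29.4%) or less often, red blood cell markers apart. In bulk tissue, fewer cells of a type and less RNA per cell cannot be told apart. Of 25 Kupffer cell and macrophage markers, 2 were higher and 6 lower, 1 and 0 after adjustment, and 0 and 1 without L231. Their summed level was 824 to 1192 in L231-L234, 674 to 819 in L338-L342 and 403 to 2238 on chow, with the chow mutant L325 the highest. As a share of the column total the Kupffer cell sums of the HFD series overlapped (exact permutation p = 0.114). C1qa, of complement C1q, was 94.5, 82.5, 118 and 96.5 in L231-L234 and 42.2, 56.2, 65.0 and 37.4 in L338-L342, without overlap (−1.09, SE 0.20, adjusted p = 0.00761), and was at −0.56 after adjustment (adjusted p = 0.0707). Tyrobp, a myeloid signalling adaptor, fell by 0.86 (SE 0.16), and Cd163, a haemoglobin scavenger receptor, rose by 0.74 (SE 0.17). After adjustment neither was called (adjusted p = 0.0954 and 0.0638), nor without L231 (adjusted p = 0.0586 and 0.148). Vsig4, of resident Kupffer cells, was 35.6, 28.9, 44.5 and 33.9 in L231-L234 and 34.3, 31.9, 43.1 and 37.0 in L338-L342, which overlapped (0.05, SE 0.17, adjusted p = 0.857).

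Liver endothelial markers had 5 of 20 higher and 1 lower, 5 and 0 after adjustment, and 4 and 1 without L231, with summed levels of 375 to 412 in L231-L234 and 434 to 499.9 in L338-L342. Stab2, a scavenger receptor of sinusoidal endothelium, was 19.4, 26.3, 18.4 and 23.3 in L231-L234 and 44.4, 40.1, 43.8 and 53.3 in L338-L342, without overlap (1.16, SE 0.13, adjusted p = 0.00237; 0.96 after adjustment, adjusted p = 0.00667). Ptprb, an endothelial phosphatase, rose by 0.84 (SE 0.14). Stab1 and Lyve1, of the same list, were not called, and its members ran from −0.76 to 1.16. The summed endothelial level on chow was 309 to 491, which overlapped both series. Of 28 stellate cell and matrix genes, 4 were higher and 1 lower, 4 and 0 after adjustment, and 3 and 1 without L231. One of them, Hgf, hepatocyte growth factor, rose by 1.19 (SE 0.14). Dcn rose by 0.41 (SE 0.09) but was at −0.006 after adjustment (adjusted p = 0.97). Mmp2 went the other way, from a mean of 1.41 to 0.74 (−0.56, SE 0.15, adjusted p = 0.026). After adjustment Mmp2 was not called (adjusted p = 0.111). Lrat and Des, of the same list, were not called.

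Red blood cell markers had 1 of 10 higher and 5 lower (median −0.75), 0 and 3 after adjustment, and 0 and 5 without L231. Hba-a1, an α-globin gene with a near-identical copy, was 1734, 1445, 1693 and 1606 in L231-L234 and 762, 544, 861 and 304 in L338-L342, with L342 the lowest (−1.83, SE 0.25, adjusted p = 0.00301; −1.35 after adjustment). The β-globin gene Hbb-bs fell by 1.102 (SE 0.27), and Alas2, for haem synthesis in red cell precursors, fell by 1.03 (SE 0.18). Hba-a2, the other α-globin gene, and Fech were not called. The summed level was 4943 to 7032 in L231-L234, 1805 to 4655 in L338-L342 and 1744 to 5263 on chow (exact permutation p = 0.0286 between the HFD series, adjusted 0.0477). As a share of the column total the red cell sums overlapped (exact permutation p = 0.114). The part of blood or of other cells in the remaining results was not tested. Neutrophil and lymphocyte markers had 0 of 4 and 0 of 11 genes called in either direction, and their sums overlapped between the series (exact permutation p = 0.571 and 0.457).

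Zonation genes of the pericentral hepatocytes had 8 of 28 higher and 2 lower, 9 and 2 after adjustment, and 5 and 2 without L231, whereas periportal ones had 1 of 25 higher and 7 lower, 0 and 3 after adjustment, and 1 and 6 without L231. Xenobiotic response genes had 8 of 41 higher and 1 lower, 7 and 0 after adjustment, and 6 and 3 without L231. Proteasome subunits had 1 of 38 higher and 13 lower, 0 and 6 after adjustment, and 0 and 9 without L231. Cell cycle genes had 5 of 18 higher and 0 lower, 3 and 0 after adjustment, and 1 and 0 without L231. Lipid droplet genes had 1 of 24 higher and 2 lower, 1 and 2 after adjustment, and 0 and 1 without L231. Secreted liver factors had 4 of 33 higher and 3 lower, 4 and 0 after adjustment, and 1 and 4 without L231. MHC class II genes had 0 of 8 higher and 1 lower, 0 and 0 after adjustment, and 0 and 0 without L231.

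Among called stress and early response genes, more were lower than higher, beside 13.8% lower and 15.5% higher over all genes tested. After adjustment 7.22% of all genes were lower and 5.02% higher. The share of lower genes in the immediate early and protein folding lists was then close to that of all genes. Of 19 heat shock genes, 7 were lower and 2 higher, 4 and 0 after adjustment, 8 and 0 without L231, and 0 and 0 without L342. Hspa1b, an inducible HSP70 gene with a near-identical copy, was 10.3, 28.4, 18.1 and 25.1 in L231-L234 and 3.96, 5.17, 3.22 and 2.25 in L338-L342, without overlap (−2.04, SE 0.36, adjusted p = 0.00631). Of 24 immediate early genes, 5 were lower and 0 higher, 2 and 0 after adjustment, and 4 and 0 without L231. Jund, whose GC-rich coding start is printed above, was 67.4, 67.0, 81.8 and 81.3 in L231-L234 and 41.8, 36.8, 43.1 and 24.3 in L338-L342, without overlap. Its difference (−1.17, SE 0.19, adjusted p = 0.00496) was −0.51 after adjustment (adjusted p = 0.0463). Zfp36, which destabilises messengers of inflammation, fell by 1.15 (SE 0.20). Of 33 genes of protein folding and the unfolded protein response, 5 were higher and 9 lower, 0 and 2 after adjustment, and 0 and 4 without L231. One of them, Manf, fell by 1.25 (SE 0.21).

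Among the 12 largest differences upwards, of called genes with a mean of at least 5 and separate ranges, 10 were pseudogenes. Ptges3-ps was listed at 0 in all of L231-L234 and was 18.5, 35.8, 24.9 and 26.8 in L338-L342. Gm8783 and Gm15801, which have identical values, were listed at 0 in all of L231-L234 and were 19.1, 20.6, 14.5 and 23.7 in L338-L342 and 7.59 to 27.5 on chow. Eif4a-ps4, Idi1-ps1 and the identical pair Gm12671 and Gm10359 were also listed at 0 in all of L231-L234. Idi1-ps1, a copy of a cholesterol synthesis gene, was 65.5, 40.3, 7.87 and 4.65 in L338-L342, with L338 and L339 the highest, as in Msmo1. A level under 0.01 in all of L231-L234 and of at least 1 in all of L338-L342 was met by 9 genes, 8 of them processed pseudogenes, and the reverse by 0. Such values depend on how reads are divided between a copy and its parent, and a 0 can be a failed estimate, so no fold is given. Genes at 0 in all of L231-L234 reached 1 in at least 4 libraries only through L338-L342. The filter thus kept only those that were high there, and their calls were favoured by it. Of 261 processed pseudogenes tested, 53 were higher and 21 lower, beside 15.5% higher and 13.8% lower over all genes tested. Both directions together, they were called about as often as genes at large (29.4%). Gcat, for a mitochondrial enzyme of threonine breakdown and annotated as protein coding, was under 0.01 in L231, L233 and L234, 1.12 in L232 and 15.4, 18.1, 16.7 and 21.9 in L338-L342.

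Gm10925, a pseudogene on chromosome 1, was 56.9, 78.7, 19.9 and 4.51 in L231-L234 and 4424, 5457, 709 and 4750 in L338-L342, and the chow livers ran from 50.5 to 6336 (6.65, SE 1.09, adjusted p = 0.00521). Among the 12 largest differences downwards, 3 were pseudogenes. Gm12895 and Gm12896, with identical values, were 1525, 1945, 1618 and 2022 in L231-L234 and 293, 157, 307 and 16.3 in L338-L342, with L342 the lowest by far (−4.70, SE 0.75, adjusted p = 0.00479). Lars2, the mitochondrial leucyl-tRNA synthetase gene, was 298, 315.8, 258 and 404 in L231-L234 and 73.6, 41.9, 59.1 and 29.2 in L338-L342. The chow livers, at 48.4 to 98.3, overlapped L338-L342 and lay below L231-L234 (−2.89, SE 0.28, adjusted p = 0.0018; −2.92 after adjustment). Depp1, a fasting-responsive gene, was 298, 153, 182 and 281 in L231-L234 and 59.2, 56.5, 46.4 and 47.4 in L338-L342, and 85.9 to 281 on chow (−2.25, SE 0.22, adjusted p = 0.0018).

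Whether the title-series difference depended on genotype was tested as an interaction, in which L231 and L342 are lone livers. Of 12111 genes, 6 passed (0.0495%), and 1159 passed an unadjusted p of 0.05. With 1 library left out the count ran from 1 (without L234) to 32 (without L232), and it was 3 without L338 and 10 without L341. Tsku, a secreted liver protein, was 14.1, 13.2 and 19.1 in the controls L232, L233 and L234 and 20.2 in the control L342. It was 3.54 in L231 and 55.8, 54.5 and 58.0 in L338, L339 and L341, so that L231 lay below every control on HFD and the other HFD mutants above. The difference was larger in mutants than in controls by 3.27 (SE 0.28, adjusted p = 0.0307). The interaction was 5.57 for Cyp17a1, 3.47 for Nnmt, a nicotinamide methyltransferase, −1.87 for Cyp2c50 and −2.77 for the pseudogene Gm29920, each with an adjusted p of 0.0307. In Cyp17a1 and Cyp2c50, L231 read with the controls and apart from L338, L339 and L341. In Nnmt, L342 was the lowest of the 8, at 16.5 against 69.0, 80.7 and 72.8 in the other controls.

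Esr1 was 6.42, 7.52, 6.14 and 8.09 in L231-L234, 22.9, 21.1 and 20.5 in L338, L339 and L341, and 7.07 in L342. L231 lay among the HFD controls, and L338, L339 and L341 lay above the chow range of 7.59 to 19.6. Esr1 was not called between the series (0.79, SE 0.31, adjusted p = 0.0868) or in the interaction (adjusted p = 0.114).

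**Figure D5:**
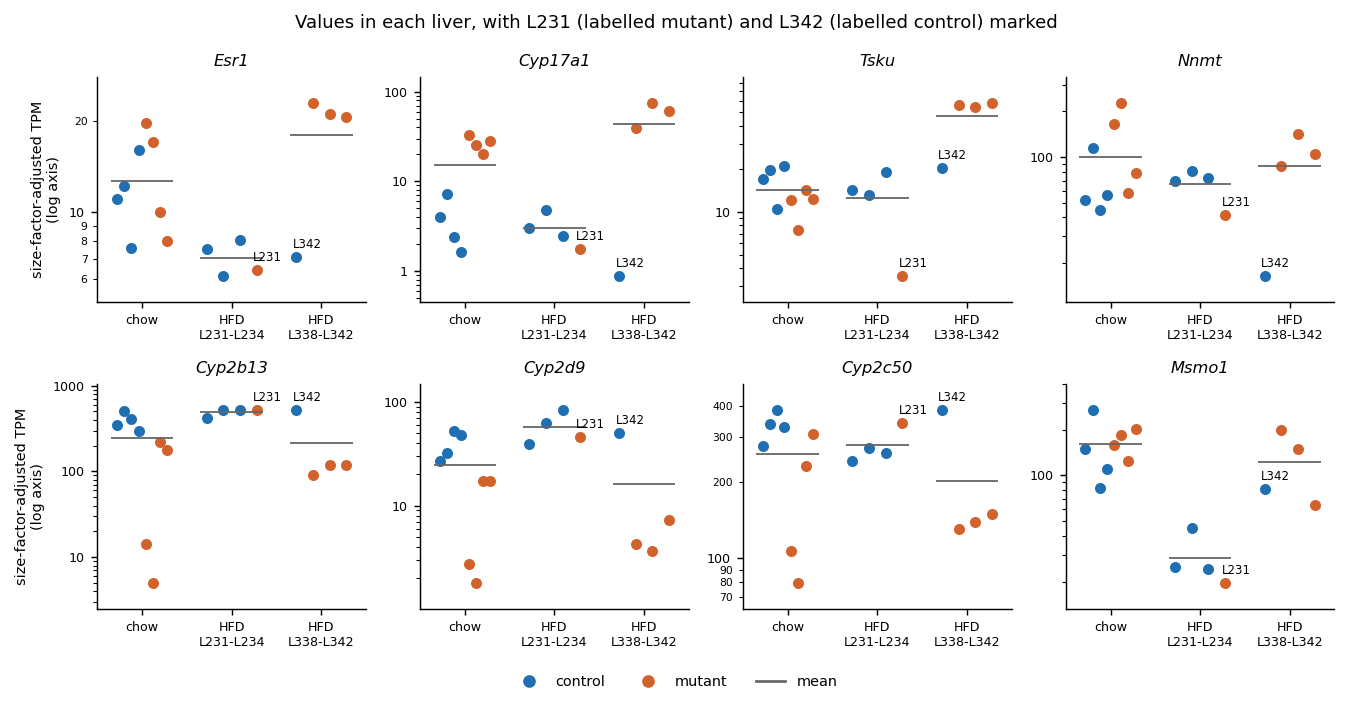
Size-factor-adjusted TPM (y axis, log scale) in each of the 16 livers for 8 genes, with L231 (labelled mutant) and L342 (labelled control) marked. Each point is 1 liver, coloured by genotype label, and each line is a group mean. In Esr1, Cyp17a1, Cyp2b13 and Cyp2d9, L231 lies near the HFD controls and away from L338, L339 and L341.

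Each HFD series was also set against the 8 chow livers, which both comparisons share. L231-L234 differed from chow in 2593 of 12704 genes (20.4%), 1289 higher and 1304 lower. L338-L342 differed from chow in 56 (0.441%), 14 higher and 42 lower, with 1986 at an unadjusted p below 0.05. The second count ran from 4 (without L338) to 243 (without the chow mutant L325) with 1 library left out. After adjustment for length and GC the counts were 1275 and 23. For 78.6% of the 3558 genes called between the HFD series, the chow mean was nearer to L338-L342, against 65.9% of all genes tested. Cytosolic ribosomal protein genes were higher than chow in 58 and lower in 0 in L231-L234 (median 0.43), and higher in 0 and lower in 9 in L338-L342 (median −0.27). Nuclear-encoded oxidative phosphorylation genes were higher than chow in 45 and lower in 0 in L231-L234, and higher in 0 and lower in 1 in L338-L342. Cholesterol synthesis genes were lower than chow in 23 of 25 in L231-L234 (median −1.69) and in 0 in L338-L342 (median −0.56), and female-biased genes in 20 of 35 and in 1. Diet and title series cannot be told apart in either comparison.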

How the data were processed

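Total RNA from 16 mouse livers was sequenced on a NovaSeq instrument. Per the labels, the authors used kallisto and sleuth on mm10 (versions not given in the sources used here). The deposited values are a signal per gene, read here from their properties as TPM adjusted by size factors, for 15544 genes. Kallisto divides ambiguous reads among transcripts, so near-identical genes are uncertain. Log2(value + 1) was fitted in limma 3.58.1 (R 4.3.3, moderated variances with a trend) with genotype and title series as terms over the 8 HFD libraries, leaving 5 residual degrees of freedom. Genes at 1 or more in at least 4 libraries of a fit were tested, with Benjamini-Hochberg adjustment over all of them at 0.05. The interaction was fitted on the means of genotype within series, and the chow comparisons on all 16 libraries with genotypes weighted equally. Length and GC are those of a gene's longest GENCODE M21 transcript (15536 identifiers matched), and the adjustment subtracted natural splines with 5 degrees of freedom in each. Library sums were compared by exact permutation (scipy 1.17.1). The fits were tested on simulated data. Gene lists are described by counts and medians. Named genes are taken from the 12 largest called differences each way with a mean of at least 5 and no overlap, up to 3 called members per list by p and up to 2 uncalled ones, 5 interaction genes and Esr1. The title series, lists and members were chosen with earlier results of these data known. Alternatives varied the pseudocount, filter, scaling, terms, weights, length and GC adjustment and the libraries included.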

Additional observations from a re-analysis of the deposited data

Results flagged for a closer look

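In each group of 4 libraries, the highest or lowest was compared with its nearest neighbour as a share of the group's range (Dixon's test). Of 218 groups looked at, 23 had a library that stood apart. Chance gives about 1 in 20 for unrelated groups of like libraries, which these groups are not. They share the same libraries, and each mixes genotypes, with L231 the lone mutant or L342 the lone control. Tsku, Cyp2c50, Cyp17a1 and Gm29920 were also named for their interaction, which favours a lone liver that stands apart. The count therefore cannot be set against chance. Several of the 23 belonged to L342, the lone control of L338-L342. It was highest in Cyp2b13 (522), Dgat1 (21.1), Cyp2c50 (385) and Gm29920 (41.1), and lowest in Tsku (20.2), Cyp17a1 (0.881), Esr1 (7.07), Cd163 (8.65) and Scp2 (1630). In the same series L338 was highest in Socs2 (53.6) and in the summed skeletal muscle markers (5.49), L339 was lowest in Srebf1 (224) and highest in the percentage held by the 20 most abundant genes (35.2), and L341 was highest in Tyrobp (37.7) and lowest in Gm10925 (709).

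In L231-L234, L232 was lowest in Atp6v0d2 (3.16), Cyp2b13 (419) and the summed adipose tissue markers (1340), and highest in Gcat (1.12) and the summed neutrophil markers (606). L231 was lowest in Cyp4f14 (95.8), L233 highest in Acat2 (34.9) and L234 highest in the summed pancreas markers (28.9).

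The title-series difference was unlike in mutants and controls by the interaction test for 5 named genes, as log2 difference in mutants minus that in controls: Tsku 3.27, Nnmt 3.47, Cyp2c50 −1.87, Gm29920 −2.77 and Cyp17a1 5.57 (adjusted p from limma 0.0307 for each). Each rests on the lone livers L231 and L342.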

How the results depend on the processing

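The count of 3558 genes called between the title series stayed within a factor of 1.5 under another pseudocount, low-value filter, scaling, without the genotype term and over all 16 libraries (3179 to 4427). It was 1482 after adjustment for length and GC (608 higher, 874 lower), 2162 with library weights (1063 higher, 1099 lower) and 525 with the adjustment and L231 left out (154 higher, 371 lower), a combination chosen after seeing the data. Leaving out 1 library gave 915 to 3393 calls, 432 to 1763 higher and 483 to 1630 lower, lowest without L342. The interaction count of 6 was 10 at a pseudocount of 0.1, 11 without a filter, 0 by limma with library weights (676 at an unadjusted p below 0.05) and 1 to 32 with 1 library left out (32 without L232, 1 without L234). It cannot be estimated without L231 or L342. The comparison of L231-L234 with chow gave 1275 after adjustment and 2100 to 2732 with 1 library left out. That of L338-L342 gave 37 under median-of-ratios scaling, 34 scaled without the 20 most abundant genes, 23 after adjustment and 4 to 243 with 1 library left out (4 without L338, 243 without L325). The length gradient, longest minus shortest class, was 0.70, and 0.81 with a minimum of 5.

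Some log2 differences changed sign. After adjustment Igf1 was −0.06. With L231 also left out, the differences were −0.26 for Igf1, 0.21 for Cyp2b13, 0.086 for Cyp2d9, 0.071 for Dgat1, 0.33 for Cyp2c50, −1.14 for Cyp17a1 and −0.42 for Esr1. Without the genotype term Nnmt was 0.093 and Gm29920 −0.38. Vsig4 was −0.0029 under median-of-ratios scaling and −0.0054 with library weights. With 1 library left out, the ranges were −2.22 to 0.12 for Cyp2b13, −0.021 to 0.12 for Vsig4, −2.10 to 1.37 for Nnmt, −1.29 to 0.57 for Cyp2c50, −1.19 to 4.37 for Cyp17a1, −1.24 to 1.54 for Gm29920, −0.025 to 1.60 for Esr1 and −1.52 to 0.40 for the summed neutrophil markers. The cause was not tested. Of 72 called genes named, 10 were no longer called after adjustment, 14 without L231, 17 without L342 and 39 with the adjustment and L231 left out. Other alternatives took 0 to 6 of these calls, and Dcn and Mmp2 are not among the 72. No paired analysis was possible because the labels give no replicate numbers. The small number of libraries, 5 residual degrees of freedom and the unknown depth limit every estimate.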
